A study of Nothobranchius furzeri with 20 samples.

Results

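The genes described here are the 150 whose brain mRNA levels spread most among old male killifish relative to young ones. They were chosen by a rule from 26739 genes in a count table of 20 libraries. Each count was divided by the total of its library and scaled to CPM (counts per 1000000 counts), and the 14510 genes that averaged 5 CPM or more over the 20 libraries were kept. On the scale log2(CPM + 0.5), the variance of each gene was taken within 4 groups of fish. The mean variance of both groups at 27 weeks was divided by the mean variance of both groups at 9 weeks plus 0.01, and the 150 genes with the highest ratio are called members here. One library, 27-week replicate 8, was left out of the variances by the rule, so the 27-week spread rests on 9 fish. The spread is therefore what chose the members, and it is given below as a description, with no test.

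The turquoise killifish (Nothobranchius furzeri) is an annual fish of ephemeral African ponds with one of the shortest lifespans known among vertebrates, and it is used in research on brain ageing. Bulk RNA sequencing reads the average over all cells of a brain, and a level can differ between individuals with genotype, sex, social rank, time of day, infection, recent activity or the way the tissue was cut out. Ageing has been studied both as a shift of mean expression and as a loss of uniformity between individuals, and the spread of a gene among animals of one age addresses the second.

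All fish were males of the strain MZM-04/10p, a line derived from wild-caught fish, and the sampled tissue was brain. At 9 weeks, 5 fish had no exercise and 5 fish had been in a swim tunnel. The 10 fish of 27 weeks are all labelled as swim-tunnel fish, and unexercised fish of 27 weeks were not analysed here. Mean levels are therefore compared by age within exercised fish. The ratio, the 2-fold departures and the range of the young use all 10 fish of 9 weeks, of which 5 were unexercised. In those results age is not fully separated from exercise. The labels give no batch, tank, date or duration of exercise, and do not say that each library came from another animal, although libraries are called fish here. The 27-week titles carry 2 runs of numbers, with replicates 1 to 5 in one and replicates 6 to 10 in the other. The rule took variances within each run so that a shift between runs adds no spread, and no label says what separates the runs.

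Library totals ranged from 15048627 to 34843199 counts. The 27-week replicate 8 stood apart from all other libraries. Of all 14510 genes, 13.3% lay at least 2-fold below the mean of the 9-week fish in it and 4.78% at least 2-fold above. No other library exceeded 3.09% and 1.86%. Its TMM factor, a scaling factor that evens out the bulk of genes between libraries, was 0.736, and its values are given beside each result below. CPM does not use this factor, so every gene reads lower in replicate 8 than it would after TMM scaling. The identifiers of the table could not be paired with gene names, since 0 of 26739 matched the RefSeq table of assembly NfurGRZ-RIMD1. No member can therefore be given a function, cell type markers could not be read, and members are given by identifier or by rank of their ratio. In bulk tissue, fewer cells of a type and less RNA per cell cannot be told apart, for any value below.

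The ratio fell steeply over the first members and then slowly. It was 80.0 for the first member, 28.1 for rank 2, 27.1 for rank 3, 13.7 for rank 10, 6.56 for rank 50 and 4.26 for rank 150, and 20 members exceeded 10. The first gene outside the set had 4.22, so the border of the set is not marked by a gap. The median ratio of all 14510 genes was 0.639, a value that the constant of 0.01 lowers, and 55.3% of them had more variance at 27 weeks than at 9 weeks. With the ages exchanged, the highest ratio was 13.3 and rank 150 had 3.61, and 100 genes reached the lowest ratio of the members. Genes with the opposite pattern were thus present too, in smaller number and with less extreme ratios. The 2 directions were not on equal terms. The 27-week variances rest on 9 fish and the 9-week variances on 10. The minimum of 5 CPM also counted the 27-week replicate 8, and 14 members passed only through it.

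Members had a median standard deviation on the log2(CPM + 0.5) scale of 0.51 in 27-week replicates 1 to 5 and 0.39 in replicates 6, 7, 9 and 10. At 9 weeks it was 0.16 in exercised and 0.15 in unexercised fish. Over all genes of 5 CPM or more the same medians were 0.14, 0.12, 0.13 and 0.12, so at 9 weeks the members varied slightly more than other genes. Replicates 1 to 5 had the larger variance of the 27-week runs in 96 of the 150 members, against 57.7% of all genes. The root of the mean 27-week variance ranged over the members from 0.25 to 2.07.

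**Figure D1:**
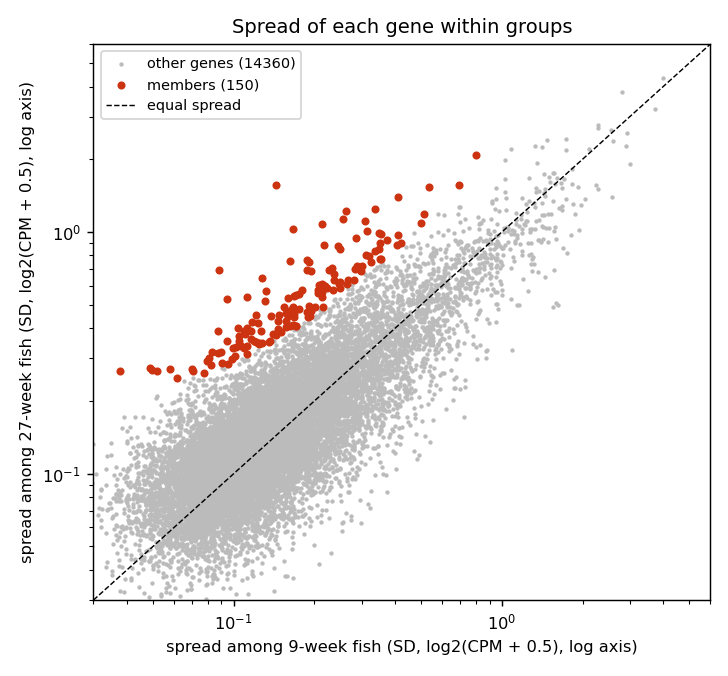
Spread of each of 14510 genes as a standard deviation of log2(CPM + 0.5) within groups, among 9-week fish on the horizontal axis and among 27-week fish without replicate 8 on the vertical axis, both log axes; red points are the 150 members and the dashed line marks equal spread. The members form the upper edge of the cloud by choice. The member of rank 1, with a ratio of 80.0, lies apart from the rest, with a variance of 2.46 at 27 weeks and 0.0208 at 9 weeks.

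The median count of a member over the 9 old fish was 413, and the lowest was 5. Poisson counting error came to a median of 1.94% of the 27-week variance and at most 38.1%. It made up 21.9% of the smaller 9-week variance, at the median. Members were expressed at lower levels than other genes: per kilobase of gene length, the median level in 9-week fish was 4.91 CPM per kb against 11.1 for all genes of 5 CPM or more. Level is not independent of the rule. Only through 27-week replicate 8 did 14 members reach 5 CPM, and they averaged 0 to 4.37 CPM at 9 weeks. Of all 14510 genes, 14334 passed without that fish. Gene length itself, which the rule did not use, had a median of 3513 bp in members, with quartiles of 2031 and 5075 bp. The median of all genes was 3056 bp, with quartiles of 1577 and 5184 bp, so the lengths overlapped over most of their range. No 2 members stood in neighbouring rows of the table (0 pairs).

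In many members a single fish gave most of the spread. In 76 of the 150 members, 1 of the 9 fish contributed over 50% of the summed squared deviations, which was so in 21.4% of all genes. The farthest fish gave a median of 51.4% of the squares in members and 38.8% in all genes. Without that fish the median ratio of the members was 2.27, and 18 members had no more variance at 27 than at 9 weeks. The fish left out was picked as the farthest, which lowers the ratio by construction.

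Departures went in both directions. Relative to the mean of the 10 9-week fish on the log2(CPM + 0.5) scale, 61 members had at least 1 of the 9 old fish 2-fold or more above, against 4.37% of all genes. At least 1 old fish 2-fold or more below was seen in 45 members, against 4.70% of all genes. Both directions occurred in 4 members, against 0.999% of all genes. No old fish was as far as 2-fold from the 9-week mean in 48 members, against 91.9% of all genes. A single fish was 2-fold away in 65 members, 2 fish were in 18, and 3 or more in 19, which was not counted over all genes. All these counts include the 14 members that reached 5 CPM only through replicate 8. Of those, 9 averaged under 1 CPM at 9 weeks, and 8 of the 9 were 2-fold above in replicate 10 and 7 in replicate 5. With the list chosen again on a minimum over the other 19 libraries, 53 members had an old fish 2-fold above and 50 had one below. Among the 10 young fish, any 2-fold departure occurred in 4 members, which is 2.67% of them, against 3.88% of all genes.

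Old fish left the range of the young more often than they departed by 2-fold. The median member had 4 of the 9 old fish inside the range of the 10 young fish, against 6 for all genes. None were inside in 7 members. How many of all genes had none inside was not counted, so nothing is read from that number. From the lowest to the highest fish, the median member spanned 1.63 on the log2 scale at 27 weeks and 0.63 at 9 weeks. The corresponding spans of all genes were 0.51 and 0.43.

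The number of members that departed differed between fish. The 27-week replicate 4 was the farthest fish for 59 of the 150 members, above its run in 52 of them. How often each fish was the farthest was not counted over all genes. The 27-week replicate 4 also departed by 2-fold. This fish lay 2-fold above the 9-week mean in 40 members and 2-fold below in 6. In all genes the shares for this fish were 1.86% and 0.655%. Replicate 10 was 2-fold above in 23 members and below in 1, where all genes gave 1.19% and 0.193%.

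Replicates 1 and 9 departed mainly downwards. Replicate 1 was 2-fold below in 18 members and above in 6, against 3.09% and 0.565% of all genes, and replicate 9 was below in 17 and above in 7, against 2.07% and 1.09%. Replicate 2 was above in 15 members (all genes 0.944%) and replicate 5 in 12 (1.12%), with 3 and 5 below (0.400% and 0.351%). Replicate 6 was above in 9 (0.710%) and below in 6 (0.648%). The fewest departures were in replicate 7, with 5 members above (all genes 1.08%) and 2 below (0.227%), and in replicate 3, with 3 above (0.951%) and 7 below (0.400%). Part of the upward counts came from the 14 members that reached 5 CPM only through replicate 8. Without those members, replicate 4 was above in 33, replicate 10 in 13, replicate 2 in 7 and replicate 5 in 4. Replicates 1, 6 and 9 were above in 5, 5 and 3. Replicates 3 and 7 were above in 0, against 0.830% and 0.851% of all genes that pass without replicate 8. The counts below did not change.

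**Figure D2:**
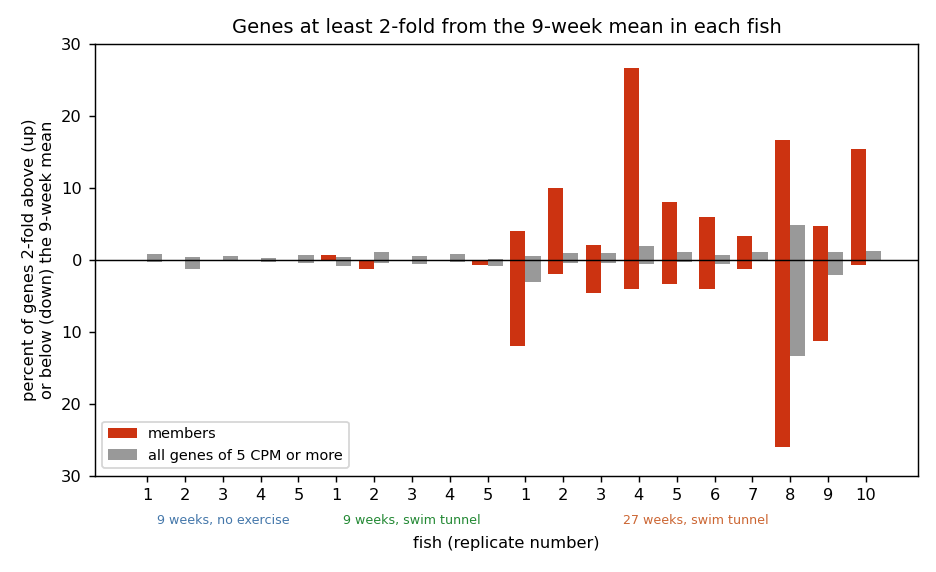
Percent of the 150 members (red) and of all 14510 genes of 5 CPM or more (grey) that lay at least 2-fold above (upward bars) or below (downward bars) the mean of the 10 9-week fish in each of the 20 fish. Replicate 4 has the tallest upward bar of members, and replicate 8, which the rule left out, departs in both directions in members and in all genes.

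The 27-week replicate 8, which took no part in the variances, departed in many members as well. It did take part in the mean of 5 CPM, and 14 members reached that mean only through it, so they had to be high in this fish. Among the members that passed without it, 11 lay 2-fold above the 9-week mean in replicate 8, which is 8.09% of them, against 3.63% of all genes that pass the minimum over the other 19 libraries. It lay 2-fold below in 39 of them, which is 28.7%, against 13.5% of all such genes.

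The 14 members that passed only through replicate 8 averaged 0 to 4.37 CPM in the 9-week fish, with a median of 0.707, and 13.2 to 4121 CPM in replicate 8, with a median of 185. In 13 of them this fish had the highest value of all 20. In 9 of the 14 the 9-week mean was under 1 CPM and replicate 8 reached at least 111 CPM, and these 9 genes took 1.34% of all its counts. The 150 members together took 1.69% of the counts of replicate 8 and 0.356% to 0.600% in each other fish.

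The same 9 genes varied at low levels among the other old fish, and those values gave them their rank. Their median level was 2.47 CPM in replicate 2, 3.05 CPM in replicate 5 and 2.63 CPM in replicate 10. In the remaining 6 fish of the rule it was 0.514 to 1.31 CPM. Of the 9 genes, 8 were at least 2-fold above the 9-week mean in replicate 10, 7 in replicate 5, 6 in replicate 2, and 0 in replicate 1. The member of rank 22, as an example, had 0.268 to 0.824 CPM in the young fish, 8.64 CPM in replicate 2, 6.30 CPM in replicate 10 and 4121 CPM in replicate 8. Rank 8 had 0 to 0.171 CPM in the young fish, 2.39 CPM in replicate 2 and 1188 CPM in replicate 8.

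The member with the highest ratio was Nfu_g_1_017424, whose length was 4251 bp. In unexercised young fish it had 8.36, 7.35, 8.83, 8.26 and 8.82 CPM, and in exercised young fish 7.80, 6.74, 7.38, 7.15 and 9.47 CPM. The 27-week fish, in order of replicate, had 5.74, 5.55, 5.11, 13.0, 8.83, 0.0823, 7.48, 0.245, 16.1 and 8.97 CPM. Replicates 6 and 8 were far below every other fish, at 2 counts in the lowest, whereas replicates 4 and 9 were above every young fish. Replicate 6 gave 66.2% of the squares and lay 14.6-fold below the 9-week mean on the log2(CPM + 0.5) scale, and the ratio without it was still 9.65. The difference in mean between old and young exercised fish was not past the threshold by edgeR's quasi-likelihood test with Benjamini-Hochberg adjustment (log2 fold change −0.13, SE 0.66, adjusted p = 0.927). The log2 fold change was 0.023 without replicate 6 and 0.013 without replicate 8, and so changed sign.

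The next member, Nfu_g_1_008017, of 7731 bp, turned on 1 fish. Unexercised young fish had 6.11, 6.33, 5.39, 6.15 and 6.08 CPM, and exercised young fish 8.83, 6.83, 5.58, 6.71 and 6.62 CPM. At 27 weeks the values were 3.22, 4.03, 5.01, 4.48, 4.55, 5.43, 5.47, 3.08, 4.53 and 40.9 CPM. Replicate 10 was above all other fish, by 2.58 over the 9-week mean on the log2(CPM + 0.5) scale, while 7 of the other 9 old fish lay below every young fish. This fish gave 72.4% of the squares, and without it the ratio was 0.875. The log2 fold change with age among exercised fish was 0.23 (SE 0.57, edgeR adjusted p = 0.838). Without replicate 10 the direction turned, to −0.62 with an adjusted p of 0.0352 by edgeR. DESeq2 was given all fish, but its default settings replace outlying counts in groups as large as the 27-week one. It gave −0.60 with an adjusted p of 0.00114, and whether the count of replicate 10 was replaced was not examined.

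Nfu_g_1_002766, of 16611 bp and rank 3, showed the same form in another fish. It had 7.55, 6.52, 7.16, 7.02 and 7.65 CPM without exercise and 7.15, 7.98, 7.11, 6.96 and 7.99 CPM with exercise at 9 weeks. At 27 weeks it had 5.46, 8.47, 7.86, 7.71, 33.2, 6.21, 6.79, 4.13, 7.03 and 7.96 CPM. Replicate 5 alone was high, 4.32-fold over the 9-week mean, and most other old fish lay within or close to the range of the young. It gave 74.5% of the squares, and the ratio without it was 2.47. By edgeR the age difference was 0.35 on the log2 scale, with an SE of 0.38 and an adjusted p of 0.610. It turned to −0.10 without replicate 5 (adjusted p = 0.624) and to −0.10 by DESeq2 (adjusted p = 0.651), which may have replaced the count of replicate 5.

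Nfu_g_1_006119, of 1360 bp and rank 7, departed downwards. Its levels were 38.9, 38.1, 38.7, 43.7 and 46.0 CPM in unexercised and 34.8, 38.9, 39.6, 48.9 and 46.0 CPM in exercised young fish. At 27 weeks they were 39.4, 33.4, 31.7, 7.23, 33.0, 38.6, 20.9, 16.3, 35.8 and 42.4 CPM. Replicate 4 was lowest, 5.39-fold below the 9-week mean, replicates 8 and 7 came next, and the old and young ranges overlapped. Replicate 4 gave 68.0% of the squares, and the ratio was 3.05 without it. The log2 fold change with age was −0.46 (SE 0.28, edgeR adjusted p = 0.334).

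**Figure D3:**
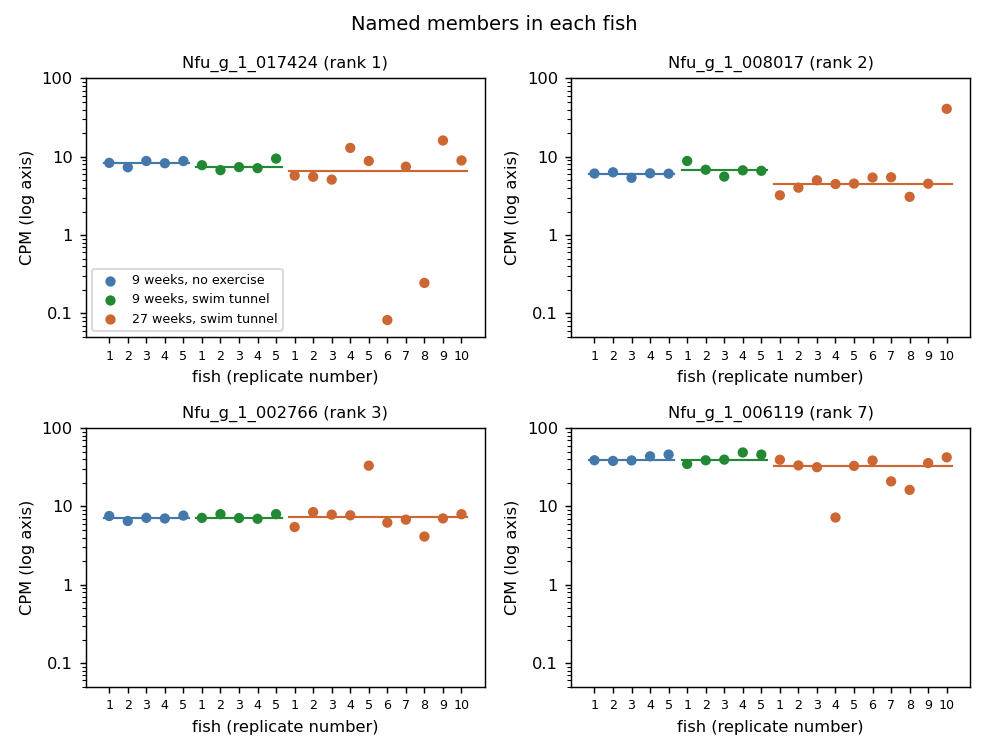
CPM (log axis) of 4 members in each of the 20 fish, with the median of each group as a line: the 2 with the highest ratio whose farthest fish lies above its run (Nfu_g_1_008017, Nfu_g_1_002766) and the 2 whose farthest fish lies below (Nfu_g_1_017424, Nfu_g_1_006119). Each panel has 1 or 2 old fish far from all others, such as replicate 10 at 40.9 CPM for Nfu_g_1_008017, whose other old fish lie mostly a little below the young.

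The members did not vary independently of each other. They were grouped by the correlation of their deviations over the 9 old fish, by average linkage down to a correlation of 0.5, which is a description of the same values that chose them. Of 16 groups, 6 held at least 5 members, and these 6 sets, here called A to F, took in all but 32 of the 150 members. Those 32, among them Nfu_g_1_002766 and Nfu_g_1_006119, were in none of the 6. With 9 fish of which 1 is often extreme, members that share their extreme fish correlate for that reason. The correlations given for each set are also high by construction, since the sets were formed on them.

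Set A held 64 members, with a median correlation between members of 0.75. Replicate 4 was the farthest fish for 52 of them. It was the highest of replicates 1 to 5 for 63 and the highest of the 9 fish of the rule for 49, and it was above every young fish in 54. It lay 2-fold above the 9-week mean in 38, where all genes gave 1.86%. The median difference of the set from the 9-week mean was 1.07 on the log2 scale in replicate 4. In the other 8 fish of the rule it lay between −0.14, in replicate 1, and 0.35, in replicate 10. The largest departure in replicate 4 was 34.7-fold on the log2(CPM + 0.5) scale. It was in a member that averaged under 1 CPM at 9 weeks and passed the minimum only through replicate 8. In replicate 8 the median was 0.54, with 15 members 2-fold above and 4 below, and 6 of the 64 are among those that passed the minimum only through it.

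The member of rank 4, in set A and 422 bp long, had 2.26 to 3.15 CPM in unexercised and 3.30 to 5.02 CPM in exercised young fish. The old fish had 2.85, 3.08, 4.82, 42.6, 4.80, 5.84, 5.03, 19.1, 6.22 and 5.29 CPM, so that replicates 4 and 8 alone were far above the rest. Rank 12 had 16.9 to 21.5 CPM in young fish, 64.6 CPM in replicate 4 and 18.9 to 27.5 CPM in the other old fish. Rank 10 had 47.3 CPM in replicate 4, 4.89 to 10.3 CPM in the other old fish and 3.87 to 7.11 CPM in the young. Not all of set A was marked by a rise in replicate 4 above young levels: in 10 members this fish lay inside or below the young range. Replicates 1 and 3 were 2-fold below the 9-week mean in 8 and 7 members of the set.

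Sets B and C were marked by low values in some old fish. Set B held 16 members (median correlation 0.82), with replicate 9 the farthest fish in 14. Its median was −1.14 on the log2 scale in replicate 9 and between −0.39 and 0.35 in the other 8 fish of the rule. Replicate 8 was lower still, at −1.53, with 14 of the 16 members 2-fold below, against 10 in replicate 9. Of all genes, 13.3% and 2.07% were 2-fold below in these 2 fish. In replicate 8, 1 member of the set instead lay 7.79 above the 9-week mean on the log2 scale, and it passed the minimum only through that fish. In the member of rank 28, replicate 9 had 1.58 CPM and replicate 8 had 14.5 CPM, whereas the other old fish had 20.6 to 55.6 CPM. Unexercised young fish had 44.3 to 71.1 CPM and exercised young fish 18.5 to 63.5 CPM. Both low fish were below all young fish for this member.

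Set C held 11 members with the highest median correlation, 0.90. All 11 were below every young fish in replicates 1, 8 and 9, with set medians of −1.49, −2.13 and −0.89. In these fish 9, 10 and 5 of them were 2-fold below the 9-week mean, against 3.09%, 13.3% and 2.07% of all genes. The other 7 old fish had medians between −0.34 and 0.25, and the 10 young fish between −0.36 and 0.24. For the member of rank 61, replicates 1, 8 and 9 had 6.77, 5.92 and 11.7 CPM. The other old fish had 24.6 to 41.0 CPM, unexercised young fish 40.6 ± 8.57 CPM (SD, n = 5) and exercised young fish 33.6 ± 8.59 CPM (SD, n = 5). Rank 95 had 9.06, 3.92 and 14.9 CPM in the same 3 fish and 19.6 to 34.5 CPM in the other old fish. Replicate 1 belongs to one run of title numbers and replicates 8 and 9 to the other, so these low values were not confined to 1 run.

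The last 3 sets were smaller. Set D, with 10 members including Nfu_g_1_017424 (median correlation 0.69), was low in replicate 6, the farthest fish for all 10, at a median of −1.31. Replicate 8, in which genes read low in general, followed at −0.67, and the other 8 old fish lay between −0.41 and 0.26. In replicate 8, 2 members of set D were 2-fold below and 1 was 2-fold above, which passed the minimum only through that fish. In the member of rank 52, replicate 6 had 8.89 CPM, the other old fish 23.2 to 32.7 CPM and the young fish 25.1 to 47.3 CPM, so replicate 6 was alone below the young range by a wide margin.

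Set E, with 10 members including Nfu_g_1_008017 (median correlation 0.76), was high in replicate 10, at a median of 2.03, which is about 4-fold. The other 9 old fish lay between −0.52, in replicate 8, and 0.35. The member of rank 14 had 52.3 CPM in replicate 10, 9.14 to 22.2 CPM in the other old fish and 9.52 to 16.6 CPM in the young. Rank 50 had 68.9 CPM in replicate 10 and 9.99 CPM in replicate 1, against 0.626 to 1.85 CPM in the other old fish. For this member 1 exercised young fish, replicate 1, also stood out at 9.64 CPM, while the other young fish had 1.03 to 3.54 CPM. A high value in 1 fish was thus seen at 9 weeks too, at a lower level. Set F, with 7 members (median correlation 0.66), had no single leading fish. Its lowest medians were −0.92 in replicate 8 and −0.63 in replicate 4, and all 7 members were below every young fish in replicate 8. The values of sets A to F in replicate 8 include the low reading of that whole library, whose TMM factor was 0.736. How many of all genes were above or below every young fish was not counted for any old fish.

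**Figure D4:**
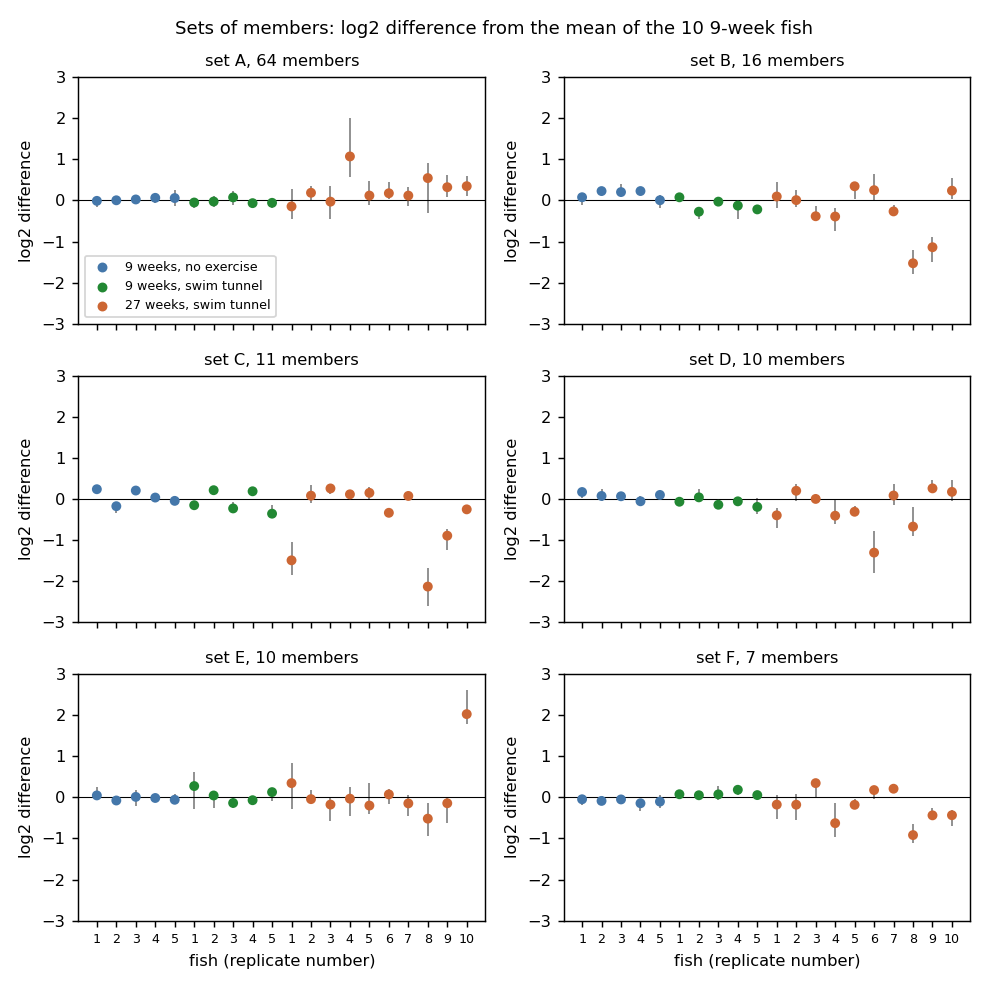
Median log2 difference from the mean of the 10 9-week fish (points) with quartiles over the members (bars), for sets A to F in each of the 20 fish. Set A is high in replicate 4 (1.07) and set E in replicate 10 (2.03), while set C is low in replicates 1, 8 and 9 (−1.49, −2.13 and −0.89).

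Sets of genes that were low together in replicates 8 and 9, or high together in replicate 4, moved with those libraries. The total counts of replicate 4 were within the range of the others and its TMM factor was 1.05. Its share of all genes 2-fold above was the highest after replicate 8. Whether the cells, the tissue sampled or the library of these fish account for the sets was not tested.

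**Figure D5:**
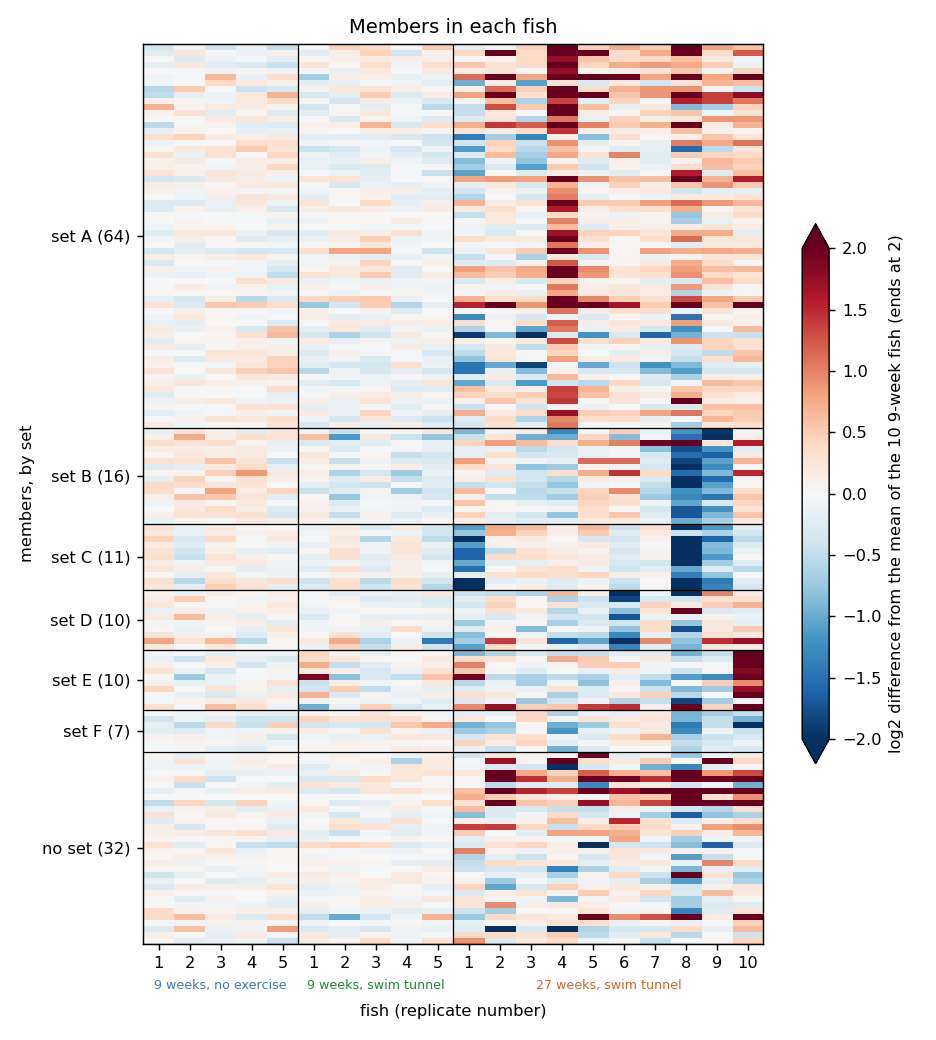
Log2 difference of each of the 150 members (rows, by set and, within a set, by rank) from the mean of the 10 9-week fish in each of the 20 fish (columns), red for higher and blue for lower, with colours ending at a difference of 2. The 10 columns of young fish are mostly pale, and strong colour is concentrated in few columns of old fish, such as replicate 10 for set E and replicates 1, 8 and 9 for set C. Set A is strongest in replicate 4, with 38 members 2-fold above, but also has departures in other old fish, such as 8 members 2-fold below in replicate 1.

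Means were compared with edgeR on the whole table. The rule used the spread within these groups, and a p-value divides a difference by the spread, so counts of members called are given beside the share of all genes and nothing is read from them. Among exercised fish, 149 members were tested between 27 and 9 weeks. An adjusted p below 0.05 was reached by 1, which was higher at 27 weeks, and by 0 that were lower, against 1.16% and 0.998% of 19531 genes tested (2.16% in either direction). At an unadjusted p below 0.05 there were 35 members, or 23.5%, against 22.6% of all genes and 24.6% of those of 5 CPM or more. DESeq2 called 17 of 148 members and 1664 of 20314 genes. The median log2 fold change of the members was 0.16, against 0.01 for all genes. The median size without regard to sign was 0.34, against 0.16 for all genes. Neither median is independent of the rule. Replicate 8 is part of this fit, and 14 members passed the minimum only by being high in it. Members were also chosen for old fish far from their run, which can move a mean. Without replicate 8 the median was 0.14, against −0.006 for all genes, and the median size 0.28, against 0.14. These medians are descriptions too.

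The sets were formed from deviations of old fish that also enter the age difference, so the sign of a set's median is a description. Over all genes tested, 47.8% were lower at 27 weeks. Set A had a median log2 fold change of 0.46, with 60 of 64 members higher at 27 weeks, and set E 0.33, with 9 of 10 higher. Sets C and F had −0.31 and −0.34, with 9 of 11 and 5 of 7 members lower. Sets B and D had −0.07 and −0.10.

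The member called was Nfu_g_1_006804, of rank 94 and set A, which is named here because its result was seen. It had 2.33, 3.16, 6.18, 2.68 and 3.71 CPM in exercised young fish and 5.35, 3.49, 6.46, 6.25 and 5.56 CPM in unexercised young fish. At 27 weeks it had 13.4, 23.3, 8.31, 55.8, 20.4, 14.8, 6.27, 41.7, 6.63 and 26.0 CPM. All 10 old fish were above all 5 exercised young fish, and 9 of 10 above all unexercised young fish. The means were 21.7 ± 16.1 CPM (SD, n = 10) and 3.61 ± 1.53 CPM (SD, n = 5) in exercised fish, and the log2 fold change was 2.68 at an adjusted p of 0.0337 by edgeR (SE 0.59). Against unexercised young fish the log2 fold change was 2.06 (SE 0.55, edgeR adjusted p = 0.0476). The call with age was lost without any 1 of the 5 exercised young fish and without 27-week replicates 2 or 5, with an edgeR adjusted p of up to 0.117, and the log2 fold change stayed between 2.41 and 2.95.

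Old exercised fish against unexercised young fish differ in both age and exercise. In that comparison 149 members were tested, and 1 was called higher and 2 lower, against 2.57% and 1.79% of 19591 genes (4.35% in either direction). The unadjusted p was below 0.05 in 41 members, against 25.3% of all genes and 27.1% of those of 5 CPM or more. Both lower members were in set A and are named after their values were seen. Nfu_g_1_000583, of rank 113, had 38.7 ± 7.53 CPM (SD, n = 5) in unexercised young fish and 17.5 ± 7.53 CPM (SD, n = 10) in old fish, with a log2 fold change of −1.13 (SE 0.29, edgeR adjusted p = 0.0442). Nfu_g_1_023027, of rank 122, had 13.1 ± 2.07 CPM (SD, n = 5) and 7.24 ± 2.41 CPM (SD, n = 10), with −0.85 (SE 0.21, edgeR adjusted p = 0.0357). All 10 old fish were below all 5 unexercised young fish for Nfu_g_1_000583, and 9 of 10 were for Nfu_g_1_023027. Exercised young fish were in between, at 28.4 ± 6.70 and 8.41 ± 1.07 CPM (SD, n = 5). All 3 calls of this comparison were lost without any 1 of the 5 unexercised young fish. They were also lost without some old fish, which were replicates 1, 2, 4, 5 or 10 for Nfu_g_1_006804, replicates 1, 2, 5 or 7 for Nfu_g_1_000583 and replicates 3 or 5 for Nfu_g_1_023027. The highest adjusted p by edgeR was 0.122.

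Exercise at 9 weeks was compared in 5 against 5 young fish. Of 145 members tested, 0 were called higher and 1 lower, against 0.0209% and 0.0784% of 19123 genes (0.0994% in either direction). An unadjusted p below 0.05 was found in 53, or 36.6%, against 12.1% of all genes and 12.7% of those of 5 CPM or more. The rule divided by the variance within these same young groups, and a p-value divides by that spread too. These shares are therefore not independent of the rule, and no response to exercise is read from them. DESeq2 called 14 of 148 members and 353 of 20228 genes. With all 20 libraries in one edgeR fit, whose spread includes the old fish, 6 members had an unadjusted p below 0.05, or 4.03%, against 5.61% of all genes of 5 CPM or more. The median log2 fold change of the members was −0.07, with 94 of 145 lower in exercised fish, against 50.1% of all genes of 5 CPM or more, and their median size was 0.19, against 0.09 for all genes.

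By set, the same comparison is given without a test of the difference between sets. Set A had 40 of 63 tested members lower in exercised young fish and 23 higher, at a median log2 fold change of −0.06, with 30 at an unadjusted p below 0.05 and 1 after adjustment. All 15 tested members of set B were lower in exercised young fish, at a median log2 fold change of −0.27, 7 of them at an unadjusted p below 0.05 and 0 after adjustment. All 7 members of set F were higher, at a median of 0.13, with 2 and 0 at these thresholds. Set C had 9 of 11 lower at a median of −0.15, set D 9 of 10 lower at −0.13, and set E 4 of 10 lower at 0.09. Members of a set vary together, so each count stands for few independent observations. Counts of small p-values by set are not independent of the rule either. The fish of set B overlapped: unexercised young fish had medians of 0.08, 0.23, 0.20, 0.23 and 0.01 on the log2 scale, and exercised young fish 0.08, −0.27, −0.03, −0.13 and −0.22.

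The member called lower with exercise was Nfu_g_1_019145, of rank 26 and set A, also named after its values were seen. Unexercised young fish had 48.6, 53.0, 42.6, 42.3 and 43.3 CPM, a mean of 45.9 ± 4.73 (SD, n = 5). Exercised young fish had 33.5, 33.4, 33.6, 31.2 and 28.8 CPM, a mean of 32.1 ± 2.10 (SD, n = 5). The groups did not overlap, and the log2 fold change was −0.54 (SE 0.07, edgeR adjusted p = 0.0250). The spread within these groups, which enters the p-value, was also used by the rule. The 27-week fish had 14.2, 23.4, 15.3, 41.6, 20.9, 48.6, 39.0, 41.7, 56.4 and 46.2 CPM, and so reached both below and above the young fish of either group. The call was lost without exercised replicates 1, 2, 3 or 4 or unexercised replicates 1, 2 or 5, with an edgeR adjusted p of up to 0.0791. With all 20 libraries in the fit the adjusted p was 0.934.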

How the data were processed

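For each of 20 libraries the authors deposited a column of unscaled counts and a column of RPKM. The labels' protocols give the TruSeq RNA Library Preparation Kit v2. featureCounts 1.4.6-p4, STAR 2.4.1d and bcl2fastq 1.8.4 appear, without roles, among the submitters' processing notes. Which build, annotation and strand setting were used is not given in the sources used here, so reads of overlapping genes or near-identical copies cannot be told apart. In the deposited RPKM, the 20 totals had been recycled from row to row: gene length computed so varied between libraries by a log2 SD of 9.69e-05 over 15027 genes with at least 50 counts, and by 0.42 with each library's own total. They served for gene length only.

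The 27-week and 9-week spreads, the ratio and the CPM minimum follow the rule given above. Fold statements use log2(CPM + 0.5), which understates low genes. Means were compared with edgeR 4.0.16 in R 4.3.3 (filterByExpr, TMM, quasi-likelihood test, two-sided), fitted and Benjamini-Hochberg adjusted over all genes that pass. DESeq2 1.42.0 was the alternative. It ran with default settings, which replace outlying counts in groups as large as the 27-week one, so its results with 27-week fish need not rest on every count as read. The rule and the edgeR steps were run on simulated counts with planted differences. All old fish were drawn alike there, with no single extreme fish. Those runs therefore do not show how the steps behave where 1 fish gives most of the spread. The members and lists were chosen with earlier results of these data known. By rule, 4 members are named, the 2 highest above and the 2 highest below their run. Another 4 are named because they were called. Replicate numbers follow the order of listing. Among 65 replicate pairs, counts differed with a chi-square of at least 7.57 per degree of freedom, so no library was counted as a repeat. P-values weigh a difference of means against the spread between these libraries. Other settings tried were scaling, pseudocount, minimum, constant, fold, runs and each fish left out.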

Additional observations from a re-analysis of the deposited data

Results flagged for a closer look

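Of 21 sets of per-fish values, 6 had a fish apart from its group, where the gap to the nearest fish is tested against the range of the group, and chance gives about 1 in 20. That figure cannot be applied to values of members at either age. The rule chose members by their spread among the 27-week fish relative to that among the 9-week fish, so those values are descriptions. The 27-week replicate 10 had 40.9 CPM of Nfu_g_1_008017, and unexercised 9-week replicate 3 was apart on the low side for the same gene at 5.39 CPM, in a group that spans little. The 27-week replicate 5 had 33.2 CPM of Nfu_g_1_002766. Replicate 8 at 27 weeks was apart in the number of members 2-fold below the 9-week mean, 39, and in the percent of counts taken by members, 1.69%, of which 1.34% came from 9 genes that passed the minimum of 5 CPM only through this library. Exercised 9-week replicate 1 was apart with 1 member 2-fold above (all genes 0.331%) where the other 4 fish had 0. Where the other fish all have 0, the gap equals the range and any single member is flagged, so nothing is read from it.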

How the results depend on the processing

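Which genes are members depended on the rule. When the list was chosen again, 86.0% to 96.7% of the 150 genes were shared under TMM or RLE scaling, a pseudocount of 0.1 or 2 CPM, or a minimum over the other 19 libraries. Fewer were shared with a minimum of 1 CPM (49.3%) or 10 CPM (68.0%), a constant of 0 (50.7%) or 0.05 (65.3%), one common 27-week mean (46.0%) or replicate 8 taken into its run (10.0%), and 66.0% to 89.3% without 1 fish, lowest without 27-week replicate 4. Members with 1 fish over 50% of the squares numbered 41 with a common mean, 149 with replicate 8, and 65 to 97 without 1 fish. Members with an old fish 2-fold above numbered 100 with a minimum of 1 CPM, 33 with a constant of 0, 149 with replicate 8, 29 at 4-fold, and 36 (without replicate 4) to 72 without 1 fish. Those 2-fold below numbered 26, 14 and 4 under the first 3 of these, 75 at 1.5-fold, 11 at 4-fold, and 33 to 56 without 1 fish. Against the exercised 9-week mean alone, a setting added after seeing the data, the counts were 65 above and 38 below. Cause was not tested.

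Members called with age, 1 as reported, numbered 17 by DESeq2 (1664 over all genes), 0 with library totals (67), 8 with all 20 libraries fitted (1207), and 0 to 7 without 1 fish (7 to 915), highest in both without 27-week replicate 8. With exercise, 1 became 14 by DESeq2 (353), 0 with all 20 libraries (1), and 0 to 2 without 1 fish (0 to 15). Against unexercised fish, 3 became 30 by DESeq2 (2323), 0 with library totals (123), 1 without a low-count filter (635), 26 with all 20 libraries (1793), and 0 to 12 without 1 fish (147 to 1547), again highest without replicate 8. Over all genes the reported calls were 421, 19 and 853. The median log2 fold changes of the members kept their sign, at 0.11 to 0.21, −0.09 to −0.06 and 0.01 to 0.08 without 1 fish. Among named members the age direction turned for Nfu_g_1_008017 to −0.60 by DESeq2 and −0.62 without replicate 10, for Nfu_g_1_002766 to −0.10 by DESeq2 and without replicate 5, and for Nfu_g_1_017424 to 0.023 and 0.013 without replicates 6 and 8. Without 1 fish these 3 ranged from −0.62 to 0.33, −0.10 to 0.42 and −0.36 to 0.023. No paired analysis was possible because no number in the labels ties a fish of one group to a fish of another.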
